A study of Homo sapiens with 1 sample.

Results

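The miR-30 family was examined on 1 microRNA (miRNA) array. It had been hybridised with RNA of DLD-1 cells, a long-established line from a human colorectal carcinoma, which had received a control siRNA labelled si-NC (n = 1). The family was taken as 10 mature miRNAs chosen by name, 5 from the 5p arm and 5 from the 3p arm of their hairpins, and all 10 were found by name among the 2549 human miRNAs of the array. The study asked how circLONP2, a circular RNA made from LONP2 exons, acts on miRNA maturation. Only the control array was used here, so no groups were compared, no p-value was computed, and each error given is technical.

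A miRNA hairpin is cut by Drosha and then by Dicer into a short duplex. One strand, the guide, is usually retained by an Argonaute protein, and the other, the passenger, is usually degraded. The seed, bases 2 to 8 from the 5′ end, carries most of the target recognition. The miR-30 family is defined by a common seed of its 5p arms and is known for repressing SNAI1, a transcription factor of the epithelial-mesenchymal transition (EMT), and BECN1, a factor of autophagy.

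RefSeq mature sequences were held for 7 of the 10 members, and these are shown because both the seed groups and the near-identity of members bear on how the array signals can be read. The seed is in capitals.
hsa-miR-30a-5p: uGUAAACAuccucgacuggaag
hsa-miR-30e-5p: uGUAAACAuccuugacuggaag
hsa-miR-30c-5p: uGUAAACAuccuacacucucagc
hsa-miR-30a-3p: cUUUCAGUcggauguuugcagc
hsa-miR-30e-3p: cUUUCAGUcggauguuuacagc
hsa-miR-30c-1-3p: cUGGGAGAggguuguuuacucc
hsa-miR-30c-2-3p: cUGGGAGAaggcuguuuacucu
The remaining members were hsa-miR-30b-5p, hsa-miR-30d-5p and hsa-miR-30d-3p.

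The 7 sequences fell into 3 seed groups. Members were chosen by family name and the family is defined by its 5p seed, so the shared 5p seed follows from that choice. The 5p arms shown shared GUAAACA, the 3p arms of miR-30a and miR-30e shared UUUCAGU, and the 3p arms of the miR-30c hairpins shared UGGGAGA. Counted from the 5′ end, hsa-miR-30a-5p and hsa-miR-30e-5p differed at 1 of 22 positions (C13U), and their 3p partners also differed at 1 (G18A). The first 12 bases of hsa-miR-30a-5p were shared with hsa-miR-30c-5p, which differed at 5 of the 22 positions compared and was 1 base longer. The miR-30c 3p arms differed at 3 positions (G9A, U12C and C22U). Among the 2248 array miRNAs with a RefSeq sequence, no miRNA outside the family had either of the first 2 seeds, and 1 had the third, hsa-miR-6788-5p, with a total gene signal of 11.3 ± 1.05. Binding of near-identical members to each other's probes was not tested.

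On GRCh38.p14 the hairpins of miR-30e (chr1:40754355-40754446) and miR-30c-1 (chr1:40757284-40757372) lay on the plus strand, 2837 bases apart, inside NFYC, which encodes a subunit of the transcription factor NF-Y. Those of miR-30c-2 (chr6:71376960-71377031) and miR-30a (chr6:71403551-71403621) lay on the minus strand, 26519 bases apart, with no other gene of the RefSeq table spanning them. The mature hsa-miR-30c-5p is the same RNA from both of its hairpins, so its signal cannot be assigned to either. Whether the NFYC hairpins are exonic or intronic was not read here. The array itself was designed on hg19.

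The hairpins of miR-30b and miR-30d lay 4268 bases apart within the span of ZFAT, a zinc finger gene.

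The first question was which members gave a measurable signal. The scanner software called 9 of the 10 members detected, against 44.4% of all 2549 miRNAs. All 5 of the 5p members were called detected, where the share was 49.1% of the 860 array miRNAs named as 5p. Of the 5 3p members 4 were called detected, where the share was 43.8% of 875. The member called undetected was hsa-miR-30c-2-3p, the only one with 0 of 20 spots well above background. Rules that asked for 50% of the spots of 1 probe or of every probe, for a signal above negative controls or for a total gene signal of 5 gave 7 or 8 members. The share of all array miRNAs that pass these rules is not given here, so those counts cannot be read against the 44.4%. The ones lost were hsa-miR-30c-1-3p under each of them and hsa-miR-30a-3p where every probe had to pass.

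The 5p members, the usual guides, gave the 4 highest signals of the family. Total gene signal is the sum over the probes of a miRNA, in arbitrary units, with an error from the software. It was 2385 ± 139 for hsa-miR-30b-5p, 609 ± 43.7 for hsa-miR-30e-5p and 462 ± 33.8 for hsa-miR-30c-5p. It was 366 ± 26.1 for hsa-miR-30d-5p and 78.2 ± 6.75 for hsa-miR-30a-5p. All 20 spots of each of these members were well above background, and all 5 lay above the median of 12.5 over the 1133 detected miRNAs. By rank among those 1133, hsa-miR-30b-5p was 41st, hsa-miR-30e-5p 81st, hsa-miR-30c-5p 92nd, hsa-miR-30d-5p 98th and hsa-miR-30a-5p 233rd.

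The 3p members were spread from a clear signal to none. The highest was hsa-miR-30e-3p at 123 ± 9.0, which stood above hsa-miR-30a-5p, followed by hsa-miR-30d-3p at 24.4 ± 1.33. Both had all 20 spots well above background. For hsa-miR-30a-3p the signal was 8.81 ± 0.978 with 13 of 20 such spots, below the median of detected miRNAs. For hsa-miR-30c-1-3p it was 1.08 ± 0.264 with 2 of 20, and it ranked 1121st of 1133. For hsa-miR-30c-2-3p the software wrote a placeholder in place of a signal.

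**Figure D1:**
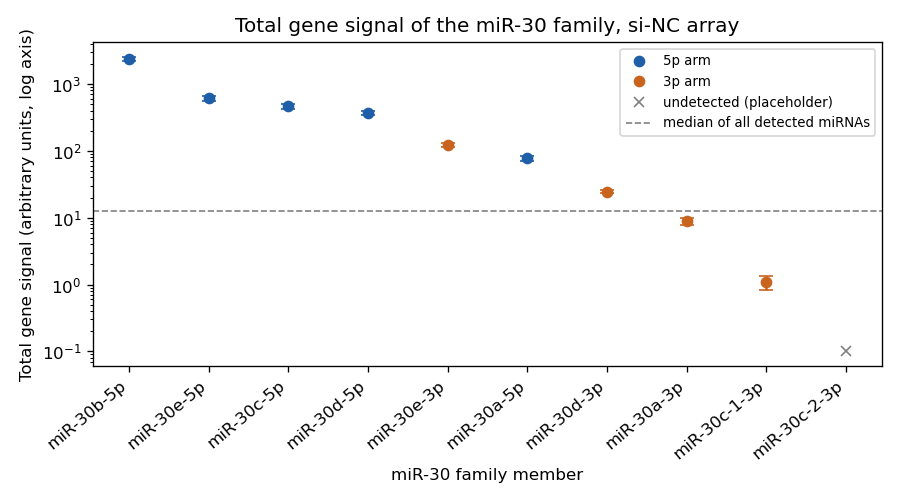
Total gene signal (arbitrary units, log axis) of the 10 miR-30 members on the si-NC array, with bars for the error from the scanner software. The 5p members run from 78.2 to 2385, the 3p members called detected from 1.08, which is close to background, to 123, and the cross marks the placeholder of miR-30c-2-3p, which is not a measured level.

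Signals of different probes do not compare as amounts of RNA, so the order describes array signals. Between neighbours in that order, the gap from hsa-miR-30e-5p to hsa-miR-30c-5p was 2.67 times its error and that from hsa-miR-30c-5p to hsa-miR-30d-5p was 2.24 times, so these 3 were not separated at 3 errors. Other neighbouring gaps ran from 3.99 to 12.2 errors. The ratio of neighbours in the unresolved stretch was 1.32 and 1.26, and that of hsa-miR-30e-3p to hsa-miR-30a-5p was 1.57. Probes of a single member differed by 1.33-fold to 5.29-fold, so the ratios of 1.32 and 1.26 were smaller than the smallest of these probe differences and the ratio of 1.57 lay within their range.

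Relative to a signal of 143, the 75th percentile of the spots that belong to detected miRNAs, the 5p members lay on the log2 scale at 5.50 ± 0.05 for hsa-miR-30b-5p (SD over replicate spots), 3.52 ± 0.03 for hsa-miR-30e-5p, 3.09 ± 0.07 for hsa-miR-30c-5p, 2.80 ± 0.04 for hsa-miR-30d-5p and 0.13 ± 0.10 for hsa-miR-30a-5p. The value for hsa-miR-30a-5p is the mean of 2 probes that lay on either side of the reference, at -1.07 and 1.33, and its SD does not cover the gap between them. Both of its probes lay above a reference taken over all miRNA spots, at 1.37 and 3.77. Every probe of the other 5p members lay above the first reference. The SDs of these members also leave out the gaps between their probes. On the log2 scale those gaps were 0.67 for hsa-miR-30b-5p, 0.50 for hsa-miR-30e-5p, 0.79 for hsa-miR-30c-5p and 0.41 for hsa-miR-30d-5p. The SDs therefore do not show how well the members are separated. The 3p members with a probe well above background lay at 1.19 ± 0.08 for hsa-miR-30e-3p, -1.13 ± 0.09 for hsa-miR-30d-3p and -1.99 ± 0.23 for hsa-miR-30a-3p. The level of hsa-miR-30a-3p rests on the brighter of its 2 probes alone, since the dimmer had too few spots well above background. The median over these 3 members was -1.13, and it turned to 1.31 when the reference was taken over all miRNA spots. The miR-30c 3p arms had no probe on which 50% or more of the spots were well above background and were given no level.

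The deposited log2 values, quantile normalized by the authors, kept the same order. They were 10.98 for hsa-miR-30b-5p, 9.11 for hsa-miR-30e-5p, 8.77 for hsa-miR-30c-5p, 8.57 for hsa-miR-30d-5p, 6.95 for hsa-miR-30e-3p, 6.35 for hsa-miR-30a-5p, 4.72 for hsa-miR-30d-3p and 3.20 for hsa-miR-30a-3p. For these 8 members the deposited value minus the log2 total gene signal ran from -0.24, for hsa-miR-30b-5p, to 0.11, for hsa-miR-30d-3p. The miR-30c 3p arms sat at 2.3236 and 2.3219, at the floor of the table, so the deposited values hold no measured difference between them.

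The next question was how each 5p arm stood against its 3p partner. In all 5 hairpins whose arms are both members the 5p signal was the higher one, an undetected arm being counted as the lower, where the 5p arm was higher in 55.7% of 517 pairs of arms on the array with at least 1 arm detected. The pairs were matched by name, which takes in miR-30a, miR-30b, miR-30d and miR-30e and leaves out miR-30c. Both miR-30c hairpins among the 5 use the signal of hsa-miR-30c-5p, so they are not separate measurements of a 5p arm. The 5p over 3p ratio was 4.95 for miR-30e, 8.88 for miR-30a and 15.0 for miR-30d. On the log2 scale these were 2.31 ± 0.15, 3.15 ± 0.20 and 3.91 ± 0.13 (errors carried over from the software). The step from miR-30e to miR-30a was 0.84 ± 0.25 and that from miR-30a to miR-30d 0.76 ± 0.24, both just over 3 errors. These steps include differences between probes, which the software errors do not cover.

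The miR-30c hairpins stood apart from these. Neither of their 3p arms had a probe well above background on 50% or more of its spots, so only a lower bound was formed. It sets the spot signal of hsa-miR-30c-5p against the higher of the dimmest array probe that passed, 11.7, and the brightest probe of the 3p arm. The 5p signal, 1216, is a mean taken on the log2 scale, while the other probe values are arithmetic means. With the probes of hsa-miR-30c-5p averaged, its signal was at least 102.5-fold higher for miR-30c-1 and at least 103.8-fold higher for miR-30c-2. On the log2 scale these were 6.68 and 6.70. They are not bounds for every probe. The dimmer hsa-miR-30c-5p probe alone, at 927, was 78.2 times the brightest hsa-miR-30c-1-3p probe, at 11.9. The 5p arm may come from either hairpin, so the bounds describe the signals and not the processing of 1 hairpin. The median difference over miR-30a, miR-30d and miR-30e was 3.15. It was 3.53 with miR-30c-1 added, wherever that hairpin lies above its bound.

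The 3p arm of miR-30b is on the array and is not among the 10 members. It is given here to complete its hairpin. Its signal was 11.5 ± 1.07 with all 20 spots well above background, and the log2 difference of the arms was 7.69 ± 0.16. That was 3.79 ± 0.20 above the difference of miR-30d, its neighbour within ZFAT, and the 3p signals of this pair of hairpins were 11.5 and 24.4 beside 5p signals of 2385 and 366. With miR-30b counted beside miR-30c-1, the median over hairpins was 3.91.

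Probes were then taken one at a time, since a sum can rest on 1 probe. In all 5 member hairpins the dimmest 5p probe was brighter than the brightest 3p probe, where that held for 49.1% of the 517 pairs. Both miR-30c hairpins again enter with the same 5p probes. The margin was smallest for miR-30a, at 68.1 against 36.4 in mean spot signal, a ratio of 1.87. It was 3.29 for miR-30e, 10.2 for miR-30d and 78.2 for miR-30c-1. The order of arms within each hairpin thus held for any choice of probes, while the size of the miR-30a difference depended on that choice.

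**Figure D2:**
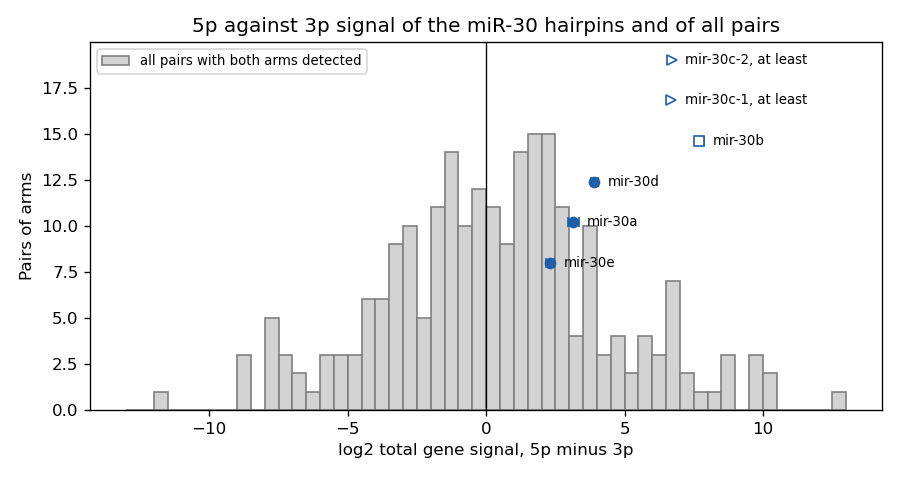
Log2 total gene signal of the 5p arm minus that of the 3p arm. Grey bars count the 232 pairs on the array with both arms detected, and points show miR-30 hairpins with the error from the software (filled circles, both arms members; open square, miR-30b), placed at separate heights for legibility only. The circles and the square lie between 2.31 and 7.69. The open triangles mark the lower bounds of the miR-30c hairpins, 6.68 and 6.70, which are not measured differences. These bounds use spot signals averaged on the log2 scale over the 5p probes.

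Over the 232 pairs with both arms detected, 53.9% had the higher signal on the 5p arm and the size of the difference had a median of 2.50, with quartiles of 1.24 and 4.49. The signed difference was smaller than that of miR-30e in 71.1% of them, than that of miR-30a in 78.9%, than that of miR-30d in 84.1% and than that of miR-30b in 95.3%.

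Arms were also compared between hairpins of near-identical sequence. The signal of hsa-miR-30e-5p was 7.79 times that of hsa-miR-30a-5p, from which it differs by 1 base, a log2 difference of 2.96 ± 0.16. The signal of hsa-miR-30e-3p was 14.0 times that of hsa-miR-30a-3p, a log2 difference of 3.80 ± 0.19. Each arm of miR-30e, a hairpin within NFYC, was thus brighter than the same arm of miR-30a. With probes taken singly, each probe of a miR-30e arm was brighter than each probe of the same arm of miR-30a. The errors of both log2 differences come from the software and do not cover gaps between probes. Mean spot signals were 68.1 and 360 for the probes of hsa-miR-30a-5p and 11.8 and 36.4 for those of hsa-miR-30a-3p. The size of both ratios thus depends on the probes read.

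Each member was measured by 20 spots, divided over 2 to 4 probes, and 155 of the 200 spots of the family were well above background, which is 77.5% against 34.3% of all miRNA spots. Negative control spots had a 99th percentile of 16.1. For hsa-miR-30b-5p, the brightest member, the 3 probes had mean spot signals of 4918 ± 142 (SD, 7 spots), 7007 ± 266 (7 spots) and 7817 ± 331 (6 spots). The lowest single spot was 4713 and the highest 8114. The spots of the dimmest probe, which reached 5078, did not overlap those of the other probes, while the brighter pair overlapped.

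Probes on which fewer than 50% of the spots were well above background were left out of probe differences. The 2 probes of hsa-miR-30a-5p differed the most among the members. The dimmer had a mean of 68.1 ± 3.96 (SD, 10 spots), with spots from 61.9 to 74.8 and a median of 68.6. The brighter had a mean of 360 ± 27.9, with spots from 306 to 395 and a median of 362. The log2 difference was 2.40 ± 0.04 (SE from replicate spots), and 96.9% of the 683 detected miRNAs with 2 probes in use had a smaller one. The brighter probe supplied 84.1% of the total gene signal, so the level of hsa-miR-30a-5p depends on which probe is read.

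The other members with at least 2 probes in use had differences from 0.41 to 0.82. For hsa-miR-30d-5p the probe means were 860 ± 11.1 (8 spots) and 1141 ± 45.8 (9 spots), a difference of 0.41 ± 0.02. For hsa-miR-30e-5p they were 1380 ± 30.9 (9 spots) and 1950 ± 41.4 (10 spots), a difference of 0.50 ± 0.01. For hsa-miR-30c-5p they were 927 ± 42.4 and 1598 ± 78.2 (10 spots each), a difference of 0.79 ± 0.03. In none of these 3 members did spots of the dimmer and the brighter probe overlap, outlier spots aside.

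Among the 3p members, hsa-miR-30e-3p had probe means of 254 ± 14.1 and 419 ± 21.2 (10 spots each), a difference of 0.72 ± 0.03. The 4 probes of hsa-miR-30d-3p had means of 47.9 ± 4.17, 62.3 ± 4.77, 72.1 ± 3.89 and 84.5 ± 2.15 (5 spots each), and the difference of 0.82 ± 0.06 between the outer 2 was larger than that of 31.6% of the 57 detected miRNAs with 4 probes in use. For hsa-miR-30a-3p the brighter probe had a mean of 36.4 ± 5.49 (10 spots), with spots from 26.3 to 45.7. The dimmer had a mean of 11.8 ± 1.82, below the 16.1 of the negative controls, with 3 of 10 spots well above background.

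The signals of the miR-30c 3p arms were at background for most spots. The 4 probes of hsa-miR-30c-1-3p had means of -0.65 ± 2.92, 1.78 ± 1.79, 5.89 ± 2.58 and 11.9 ± 3.85 (SD, 5 spots each). The detection call rested on the last, whose signal was 4.11 times its error and which supplied the whole total gene signal. Its highest spot, at 17.6, was above the 16.1 of the negative controls and its mean was not. The 2 probes of hsa-miR-30c-2-3p had means of -0.22 ± 1.03 (9 spots) and 3.27 ± 1.80 (10 spots), and the highest spot was 5.78. These members were thus not well above background on most or all of their spots, which does not show that the RNAs were absent.

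**Figure D3:**
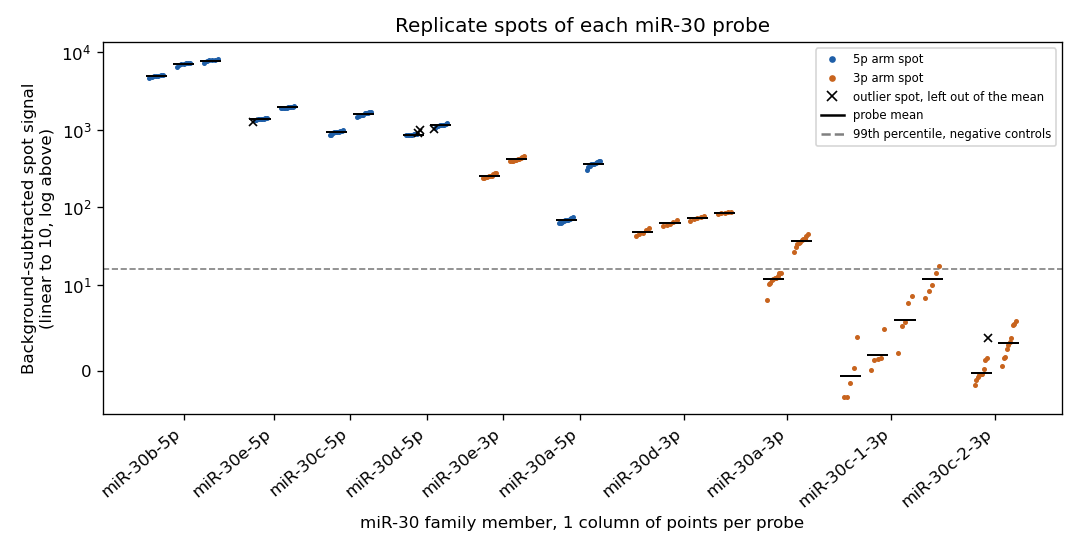
Background-subtracted signal of each replicate spot (linear to 10, log above), with 1 column of points for each of the 25 probes of the 10 members and a line at the probe mean. Spots of a probe lie close together above 100, the probes of miR-30a-5p are separate, and the spots of both miR-30c 3p arms lie at or near the dashed 99th percentile of negative controls, 16.1, or below it.

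Replicate spots agreed more closely than probes did. Over the 18 member probes on which 50% or more of the spots were well above background, the coefficient of variation (CV) had a median of 4.73% and ran from 1.29% to 15.1%, beside a median of 8.74% over all such probes on the array. These medians were not matched for signal. The lowest CV belonged to a probe of hsa-miR-30d-5p with a mean of 860 and the highest to a probe of hsa-miR-30a-3p with a mean of 36.4. That lowest CV was taken over 8 of 10 spots, the others having been left out as outliers. The software put the error of a single 5p probe at 10.0% to 10.7% of its signal.

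All 7 members with at least 2 probes in use had probes more than 3 standard errors of their spots apart, where the share was 65.8% of 801 detected miRNAs. Judged by the larger errors of the software, 5 of the 7 were more than 3 errors apart, where the share was 28.0%, and hsa-miR-30d-5p and hsa-miR-30e-5p were not. The median log2 difference was 0.72 over the 7 members and 0.35 over the 801. These comparisons were not matched for signal or for number of probes. Against detected miRNAs with the same number of probes in use, 96.9% had a smaller difference than hsa-miR-30a-5p. For the other members that share ran from 31.6% for hsa-miR-30d-3p to 78.3% for hsa-miR-30c-5p. The cause of probe differences was not tested.

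**Figure D4:**
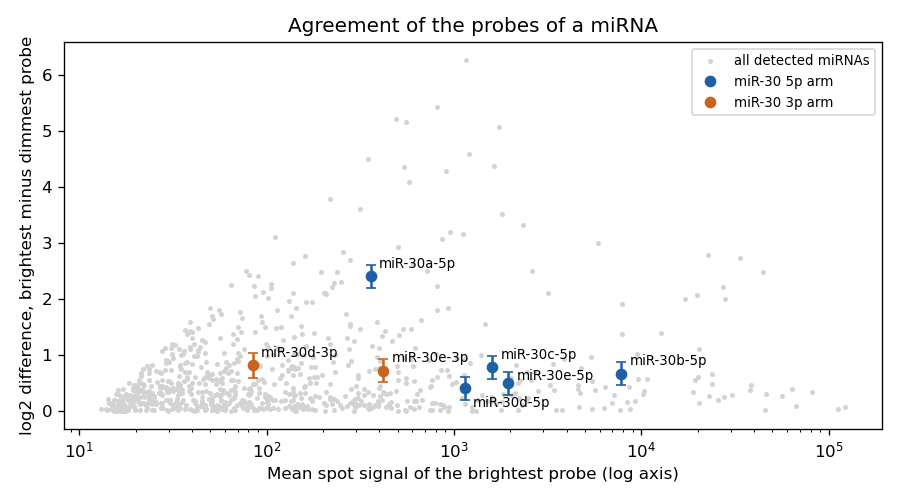
Log2 difference between the brightest and the dimmest probe of a miRNA against the mean spot signal of the brightest (log axis), for probes on which 50% or more of the spots were well above background. Grey points are the 801 detected miRNAs with at least 2 probes in use. Coloured points are the 7 miR-30 members, with bars for the error from the software. The members lie between 0.41 and 0.82 except miR-30a-5p at 2.40.

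The array was also read for a list of other miRNAs known for repressing EMT transcription factors. Of the 10 on the list 7 were called detected, where the share of all array miRNAs was 44.4%, with signals from 542 ± 38.4 for miR-34a-5p to 9249 ± 657 for miR-200b-3p, and miR-205-5p, miR-34c-5p and miR-214-3p were undetected. A list of 8 colon epithelium miRNAs, 5 of them shared with the first, was detected in full, with signals from 319 upwards. Of the muscle list 0 of 3 were detected, of the liver and neural list 1 of 3, of the stroma and vessel list 1 of 4 and of the blood list 3 of 4, to be read against the same 44.4%. The blood list was led by miR-142-3p at 695 ± 50.05.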

How the data were processed

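Total RNA of 1 si-NC sample of DLD-1 cells was labelled with Cy3 per the labels and hybridised to 1 single-colour Agilent array. The study's methods give another labelling kit. Per the file headers, Feature Extraction 11.0.1.1 gave the intensity of each spot after background subtraction, with flags (score of 0 or 1) for outliers, detection and spots well above background, and no normalization between arrays. The authors deposited log2 values made by quantile normalization in GeneSpring. How their floor was set is not given in the sources used here.

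Total gene signal, as deposited, is the sum of the probes whose signal was at least 3 times its error, and a probe's signal was 0.0183 times the sum over its spots. Each miRNA had 20 spots in all. Outlier spots were left out (5 of the 200 member spots). Control spots were not used, apart from the 1000 negative controls. Probes needed at least 50% of spots well above background for CVs, levels and probe differences. Sequences and gene spans came from RefSeq on GRCh38.p14. The software was Python 3.11.15 (matplotlib 3.10.9, numpy 2.4.6, pandas 2.3.3, scipy 1.17.1). The normexp correction was run by limma 3.58.1 under R 4.3.3 with an offset of 50, on the median spot signal. The scripts were checked on simulated spots.

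All 10 members were named by rule, with hsa-miR-6788-5p through its seed, and hsa-miR-30b-3p was added after its value was seen. Members and lists were chosen with earlier results of these data known. Alternatives were other detection rules, references, background corrections, signals, the deposited values, outliers kept and no filter on dim probes.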

Additional observations from a re-analysis of the deposited data

How the results depend on the processing

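Over 8 results, 31 alternative values were computed, of which 21 stayed within their limits. Counts were held to 1.5 times, the share of pairs to its 95% Wilson interval, and other values to the error over spots, the error of the software or the SD between probes. The count of detected members ran from 7 to 9 over 5 other rules, for which no share over all array miRNAs is given. The 9 came from counting deposited values above the lowest. That rule took in hsa-miR-30c-1-3p, which sat at the floor of those values, so it is a weak check. The median level of the 5p arms, 3.09, moved to 5.53 with the reference over all miRNA spots, 2.67 with normexp and 2.94 with deposited values. That of the 3p arms, -1.13, reversed to 1.31 with that reference, which is lower by construction, and moved to -0.70 with normexp. The median arm difference, 3.53, moved to 2.62 with normexp, which adds its offset to every signal, to 3.91 with miR-30b counted and to 3.15 without miR-30c-1, the last 2 being choices made after seeing the data. That of the difference between probes, 0.72, became 0.79 with no filter on dim probes and 0.61 with normexp. Other causes were not tested. Signal over background limits the miR-30c 3p arms and the dimmer probe of hsa-miR-30a-3p. With 1 array, the spread between cultures is not measured.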
